A study of Mus musculus with 6 samples.

Results

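The 10 genes described here are widely used as markers of dividing cells, and their levels were followed in mouse ovaries: Mki67, Top2a, Ccnb1, Cdk1, Aurkb, Plk1, Birc5, Ccna2, Mcm2 and Mcm5. They were chosen by symbol, and all 10 were found among the 19423 genes of the deposited table and were among the 15787 tested. The ovaries came from balb/c-nude mice, an athymic strain that accepts foreign tumor cells, and were taken on day 80. One group, named control in the labels, has 3 libraries; the other, tumor, has 3 libraries from mice injected under the skin with a cancer cell line, named MBA-MD-231 in the labels. The treatment labels end that name with a different number in each tumor replicate, while the cell line label is the same in all. Neither group has an age, an estrous stage or an allele in the labels, and whether controls received an injection is not given in the sources used here. Nothing states that the samples came from separate animals, so p-values measure only the spread between these samples.

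A cell that divides first licenses its DNA for replication, copies it, and then condenses, aligns and separates the chromosomes, and the genes for these steps are transcribed in waves from late G1 to mitosis. In the ovary most dividing cells are granulosa cells of growing follicles, and granulosa cells stop dividing when they turn into luteal cells. Oocytes do not divide by mitosis, but they store cyclin B and its kinase for the meiotic divisions. In bulk tissue, fewer cells of a type and less RNA per cell cannot be told apart.

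Total estimated counts lay between 18278614 and 19238900 per library, and each marker had between 280 and 2476 counts in a library. Levels are CPM, a gene's counts scaled to a common library total, scaled by edgeR's TMM factors. Tumor replicate 1 stood apart from its group: its first principal component score, from log2 CPM, was -34.6, within the range of the controls at -42.8, -42.1 and -5.2, while tumor replicates 2 and 3 had 49.6 and 75.1. On the second component tumor replicate 1 lay far below every other library, at -66.5. Control replicates 1, 2 and 3 had 32.9, 2.4 and 39.8 there, and tumor replicates 2 and 3 had -2.3 and -6.2. The count of calls, the median and the fold changes of the markers are also given without tumor replicate 1.

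The deposited annotation, on GRCm38.p6, places Mki67 at chr7:135689784-135716450 and Plk1 at chr7:122159435-122169884 on the same chromosome. Top2a lies at chr11:98992947-99024199, Aurkb at chr11:69045624-69051664 and Birc5 at chr11:117849237-117855743. Ccnb1 lies at chr13:100778739-100786486, Cdk1 at chr10:69335146-69352912, Mcm2 at chr6:88883474-88898780 and Mcm5 at chr8:75109509-75128439. Ccna2, at chr3:36564865-36573057, overlaps Exosc9, and without strand reads of the shared stretch cannot be told apart, so its values are uncertain. Its counts were not whole numbers in any library, nor were those of Birc5 and Mcm5, so their levels may share reads with other genes and are uncertain too. The deposited annotation also lists Klra9 over Mcm2, whose counts were whole in all 6 libraries.

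Many genes of the late waves are controlled through short promoter elements, so the promoters of the markers are shown before their values. RefSeq promoter windows of the GRCm38.p6 build, reaching from 250 bases before to 50 bases after the gene start, were available for 8 markers; Aurkb and Ccna2 had none. The elements searched, on both strands, were TTTGAA and TTCGAA, the letters of the cell cycle genes homology region through which the DREAM and MuvB complexes act, CCAAT, bound by NF-Y, and the E2F letters TTTGGCGC, TTTCCCGC, TTTCGCGC and TTTGCCGC. TTTGAA was in 5 of 8 marker windows (Mki67, Top2a, Cdk1, Plk1 and Mcm2), against 17.9% of 32851 windows of the same length. TTCGAA, which reads alike on both strands, was in the Top2a window alone of the 8, against 1.56% of all windows. CCAAT was in 7 of 8, all but Birc5, against 37.4% of all windows. An E2F word was in 2 of 8, Cdk1 and Mcm5, against 2.26% of all windows. A match is a run of letters and not a measured binding site. The bases before the start are printed for 5 markers, Mki67, Top2a and Cdk1 with both TTTGAA and CCAAT, Ccnb1 with CCAAT only, and Mcm5 with E2F letters and CCAAT; capitals mark the matches, each read 5′ to 3′ on the gene's strand.
Mki67, chr7:135716380-135716629, minus strand: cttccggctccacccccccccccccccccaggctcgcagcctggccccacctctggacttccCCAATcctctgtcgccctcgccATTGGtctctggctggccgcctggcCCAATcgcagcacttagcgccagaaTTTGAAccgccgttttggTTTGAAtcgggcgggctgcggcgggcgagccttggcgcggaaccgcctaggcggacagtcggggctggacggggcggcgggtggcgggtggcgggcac
Top2a, chr11:99024190-99024439, minus strand: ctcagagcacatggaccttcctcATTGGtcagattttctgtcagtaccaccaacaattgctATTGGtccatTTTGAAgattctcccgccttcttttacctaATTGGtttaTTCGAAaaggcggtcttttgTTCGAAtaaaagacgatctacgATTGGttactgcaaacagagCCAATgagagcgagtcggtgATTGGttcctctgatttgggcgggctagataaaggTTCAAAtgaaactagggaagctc
Cdk1, chr10:69352913-69353162, minus strand: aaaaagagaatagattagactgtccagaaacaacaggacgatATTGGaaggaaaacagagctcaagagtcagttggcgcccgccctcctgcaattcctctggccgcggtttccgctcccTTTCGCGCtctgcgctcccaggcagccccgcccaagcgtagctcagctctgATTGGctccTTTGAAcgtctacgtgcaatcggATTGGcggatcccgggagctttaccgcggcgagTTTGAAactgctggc
Ccnb1, chr13:100786487-100786736, minus strand: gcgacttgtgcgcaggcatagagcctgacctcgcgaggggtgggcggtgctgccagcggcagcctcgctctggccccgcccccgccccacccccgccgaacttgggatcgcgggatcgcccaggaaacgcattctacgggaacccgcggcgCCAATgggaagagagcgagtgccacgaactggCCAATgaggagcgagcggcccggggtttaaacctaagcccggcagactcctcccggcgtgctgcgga
Mcm5, chr8:75109259-75109508, plus strand: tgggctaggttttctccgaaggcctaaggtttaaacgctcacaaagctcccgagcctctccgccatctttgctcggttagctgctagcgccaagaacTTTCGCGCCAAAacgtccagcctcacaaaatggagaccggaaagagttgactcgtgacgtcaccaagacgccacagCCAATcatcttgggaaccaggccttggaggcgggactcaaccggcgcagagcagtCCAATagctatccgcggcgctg
Distances are counted from the gene start of the RefSeq window. For Mki67 and Top2a that start lies inside the deposited position given above, so the printed bases nearest it overlap that position. In Mki67 the TTTGAA words begin 116 and 98 bases before the RefSeq start and 3 CCAAT words lie between 188 and 141 bases before it. Top2a has 6 CCAAT words in this stretch, TTCGAA at 140 and 120 bases and TTTGAA at 179 and, on the other strand, 23 bases before the start. Cdk1 carries TTTGAA at 71 and 15 bases and TTTCGCGC at 131 bases before the start. In Mcm5 the words TTTCGCGC and, on the other strand, TTTGGCGC begin at 153 and 149 bases before the start and share letters.

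The comparison of tumor with control ovaries asks whether transcripts of dividing cells differ in mice that carry the tumor. No marker passed the test. In edgeR's quasi-likelihood test with Benjamini-Hochberg adjustment over all tested genes, 0 of 10 had an adjusted p under 0.05, where 7.71% of all tested genes did, 3.8% higher and 3.91% lower in tumor. By unadjusted p, under the same threshold, 1 of 10 passed, Mki67, where 31% of all genes did. DESeq2, which called 20.6% of the genes it gave an adjusted p, and limma on log2 FPKM also called 0 of 10, and 0 of 10 had a q under 0.05 in the authors' deposited table. Without tumor replicate 1 edgeR again called 0 of 10, with a median log2 fold change of 0.21, and leaving out control replicate 2 or tumor replicate 3 turned the median to -0.09 or -0.03. The values of the tumor and control libraries overlapped for all 10 markers, while they did not overlap for 38.1% of the tested genes. The median log2 fold change of the 10 was 0.05, with a range from -0.21 to 0.48, against a median of -0.02 over all tested genes. In simulated counts of the same size, 35.7% of genes with a true fold of 2 were recovered and 71% of those with a true fold of 4. That set held 15631 genes, 98 with a true fold of 2 and 100 with a true fold of 4, and each gene was drawn independently. In the data edgeR called 1217 genes. Recovery under an adjusted threshold depends on the share of changed genes, so these rates are not the power of the comparison of the ovaries. Recovery at the spread of the 10 markers was not tested. Their median SD within groups, on log2 CPM, was 0.34, against 0.19 over all tested genes.

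**Figure D1:**
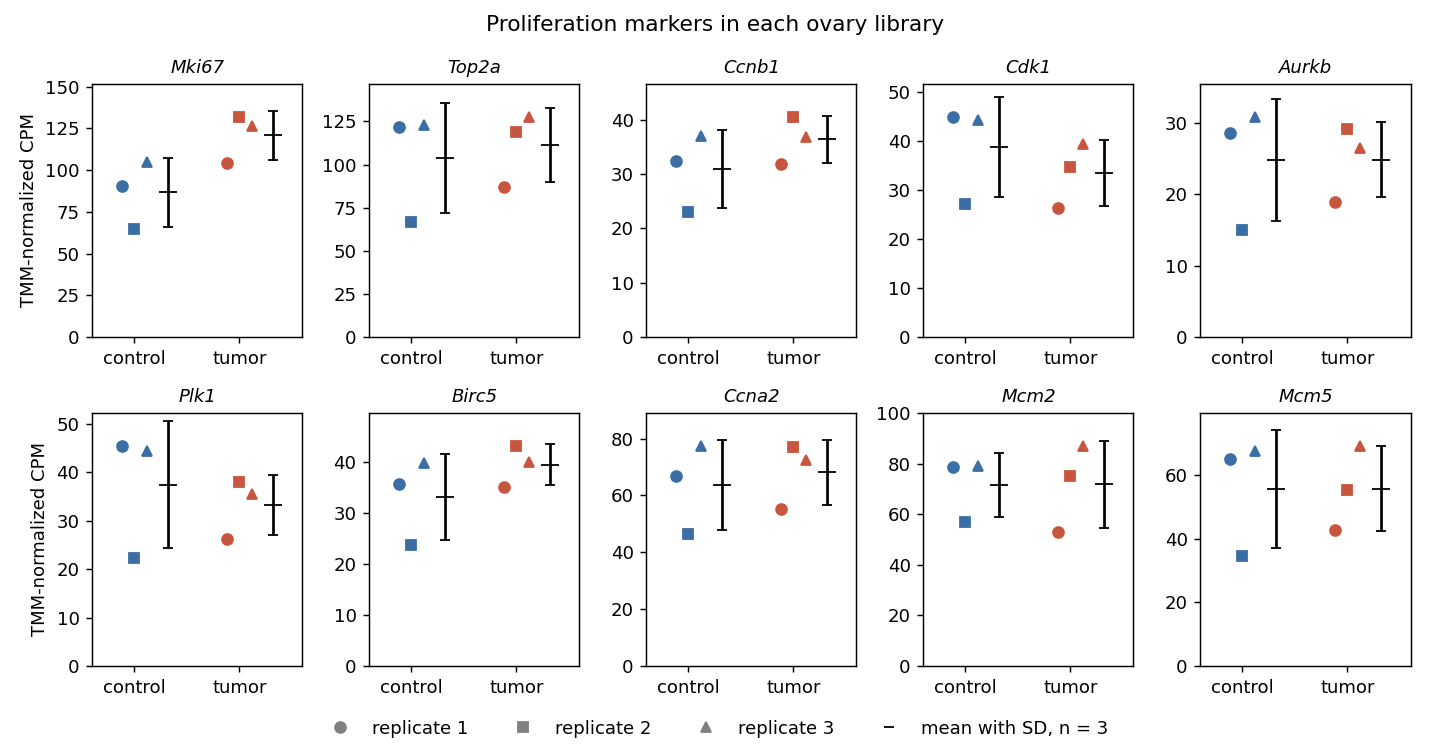
Each panel shows one marker, with TMM-normalized CPM on a vertical axis that starts at 0, the 3 control libraries in blue and the 3 tumor libraries in red; point shapes give the replicate, and the black bar is the mean with its SD. Control replicate 2 is the lowest control and tumor replicate 1 the lowest tumor library in all 10 panels, and the groups overlap in each.

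Mki67, which encodes the Ki-67 protein that coats chromosomes in mitosis, came closest to a difference. It was measured at 90.2, 64.5 and 105.0 TMM-normalized CPM in control replicates 1, 2 and 3, and at 104.3, 132.0 and 126.2 CPM in tumor replicates 1, 2 and 3. Only the highest control and the lowest tumor library crossed. The means were 86.6 ± 20.5 and 120.8 ± 14.6 CPM (SD, n = 3 each). The log2 fold change was 0.48 ± 0.19 (SE), with a 95% interval from 0.02 to 0.94 before adjustment and an adjusted p of 0.150 in edgeR. The authors' deposited table gives Mki67 a log2 fold change of 0.49 with a q of 0.0981. Without tumor replicate 1 the log2 fold change was 0.58 at an adjusted p of 0.0927. Over the 13 alternatives tried, its adjusted p lay between 0.0737 and 0.711 and its log2 fold change between 0.16 and 0.67. The lowest of these values came after a correction for gene length: Mki67 has the longest effective length of the 10, at 9170 bases, and over all tested genes the median log2 fold change was 0.23 in the group of longest genes, with a median length of 5798 bases, and -0.25 in the group of shortest, with a median of 1279 bases, when genes were split into 4 equal groups.

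The mitotic kinase and its cyclins showed no common direction. Ccnb1, cyclin B1, was at 32.5, 23.0 and 37.1 CPM in control and 31.8, 40.6 and 36.7 CPM in tumor libraries. Its log2 fold change was 0.24, with a 95% interval from -0.23 to 0.70 and an adjusted p of 0.448 in edgeR. Cdk1, the kinase that cyclin B1 activates at entry into mitosis, leaned the other way, with 45.0, 27.1 and 44.2 CPM in control and 26.2, 34.8 and 39.4 CPM in tumor libraries. At a log2 fold change of -0.21, Cdk1 had an interval from -0.79 to 0.37 and an adjusted p of 0.596 in edgeR. Ccna2, cyclin A2 of S phase and G2, stood at 67.0, 46.6 and 77.6 CPM in control and 55.2, 76.9 and 72.4 CPM in tumor libraries. Its interval reached from -0.42 to 0.62 around a log2 fold change of 0.10. Plk1, a polo-like kinase that acts from mitotic entry to cytokinesis, had 45.5, 22.3 and 44.4 CPM in control and 26.2, 37.9 and 35.4 CPM in tumor libraries. Both controls other than replicate 2 lay above every tumor library, and the log2 fold change was -0.17 with an interval from -0.90 to 0.56. For Ccnb2, the other main mitotic cyclin B gene, edgeR gave a log2 fold change of -0.14 and an adjusted p of 0.723.

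Aurkb and Birc5 encode aurora kinase B and survivin, which sit together with the products of Incenp and Cdca8 in the chromosomal passenger complex. Aurkb was at 28.6, 14.98 and 30.9 CPM in control and 18.97, 29.1 and 26.5 CPM in tumor libraries. The means, 24.8 ± 8.60 and 24.9 ± 5.27 CPM (SD, n = 3 each), differed far less than the libraries within a group. The interval of the log2 fold change still reached from -0.73 to 0.74. Birc5, at 35.8, 23.7 and 39.8 CPM in control and 35.2, 43.2 and 40.0 CPM in tumor libraries, reached a log2 fold change of 0.25, its interval running from -0.23 to 0.74. Incenp and Cdca8 had log2 fold changes of 0.05 and 0.02, and neither passed the test.

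Top2a encodes the topoisomerase that untangles sister chromatids. It was at 121.7, 67.0 and 122.7 CPM in control and 87.2, 118.9 and 127.7 CPM in tumor libraries. The log2 fold change was 0.10, with an interval from -0.56 to 0.76.

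Mcm2 and Mcm5 encode subunits of the MCM helicase that is loaded at replication origins. Mcm2 was at 78.8, 56.8 and 79.0 CPM in control and 53.2, 75.4 and 87.2 CPM in tumor libraries. Mcm5 was at 65.1, 34.4 and 67.7 CPM in control and 42.7, 55.4 and 69.3 CPM in tumor libraries. For Mcm2 the tumor libraries reached below and above all controls, and for Mcm5 the lowest library was a control and the highest a tumor library. Their log2 fold changes were 0.01 and 0.00, with intervals from -0.51 to 0.53 and from -0.74 to 0.74. The other helicase subunit genes did not pass either, with log2 fold changes of 0.02 for Mcm3, 0.23 for Mcm4, 0.23 for Mcm6 and -0.07 for Mcm7.

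**Figure D2:**
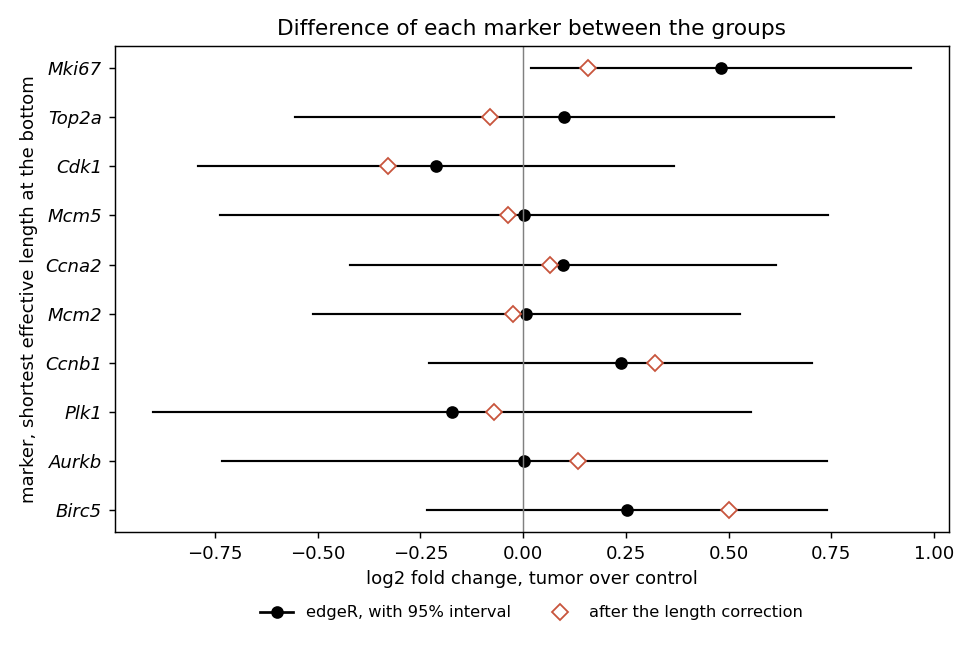
Black points give each marker's log2 fold change, tumor over control, with its 95% interval from edgeR before adjustment for multiple testing; open diamonds give the value after the length correction, and markers are ordered by effective length. The interval of Mki67 begins at 0.02 and the other 9 intervals include 0; the correction lowers Mki67 at the top from 0.48 to 0.16 and raises Birc5 at the bottom from 0.25 to 0.50.

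The intervals give a range of folds under edgeR's model, before adjustment for multiple testing. The upper ends correspond to folds between 1.29 for Cdk1 and 1.92 for Mki67, and the lower ends to folds between 0.535 for Plk1 and 1.01 for Mki67. The SE in edgeR draws on all genes, and every marker varied more within groups than the median gene, so the intervals may be too narrow. They also leave out the trend with gene length, after whose correction Mki67 had 0.16 and Birc5 0.50. Without tumor replicate 1 the log2 fold changes were 0.25 for Top2a, 0.33 for Ccnb1, -0.06 for Cdk1, 0.17 for Aurkb, -0.03 for Plk1, 0.33 for Birc5, 0.23 for Ccna2, 0.19 for Mcm2 and 0.16 for Mcm5. Without control replicate 2 they were -0.09, 0.11, -0.37, -0.22, -0.40, 0.10, -0.04, -0.09 and -0.21 in the same order. Each of these 9 was higher without tumor replicate 1 and lower without control replicate 2 than with all 6 libraries. That direction was fixed in advance, since these were the lowest libraries of their groups for all 10 markers.

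Control replicate 2 was the lowest control library and tumor replicate 1 the lowest tumor library for 10 of 10 markers. The same pair was lowest for 22% of all tested genes. This order was noticed in the data and is given as a description. The highest library exceeded the lowest by between 1.64 times for Mcm2 and 2.06 times for Aurkb. The SD within groups, on log2 CPM, lay between 0.28 and 0.46 for the 10 markers with a median of 0.34, against a median of 0.19 over all tested genes. Summed over the 10 markers, control replicates 1, 2 and 3 held 610.0, 380.4 and 648.4 CPM, and tumor replicates 1, 2 and 3 held 481.1, 644.0 and 660.9 CPM. The other 4 libraries, 2 of each group, lay between 610.0 and 660.9 CPM.

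Relative to one another the markers were steadier. The log2 CPM of each marker minus the mean of the other 9 in the same library, a measure chosen after seeing the data, had SDs within groups between 0.06 and 0.18. Mki67 stood 0.78, 1.02 and 0.93 above the other markers in control replicates 1, 2 and 3, and 1.45, 1.35 and 1.26 above them in tumor replicates 1, 2 and 3. All tumor values lay above all control values, by 0.44 on average. Cdk1 lay at -0.32, -0.35 and -0.45 in control and at -0.74, -0.77 and -0.60 in tumor libraries, a difference of -0.33, again with no overlap. For the other 8 the groups overlapped; over all tested genes, 15.9% did not overlap when set against the mean of the 10 markers, so 2 of 10 is near that share. The exact two-sided permutation p was 0.10 for both genes, the smallest that 3 against 3 libraries allow, and 0.40 after Benjamini-Hochberg adjustment over the 10 markers. From edgeR's fold changes the relative difference was 0.45 for Mki67 and -0.32 for Cdk1, and after the length correction it was 0.10 and -0.44.

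**Figure D3:**
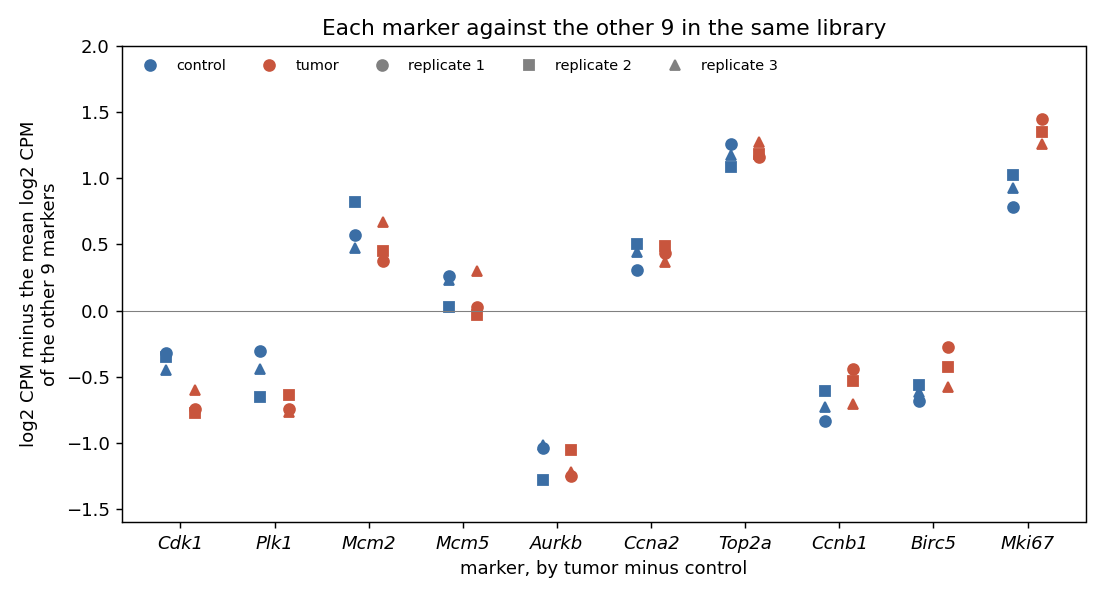
For each marker the vertical axis gives log2 CPM minus the mean log2 CPM of the other 9 markers in the same library, with control in blue, tumor in red and point shapes for replicates; markers are ordered by tumor minus control. The groups do not overlap for Cdk1 at the left and Mki67 at the right, and they overlap for the other 8 markers.

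Most other genes of the cell cycle were lowest in the same libraries. Lists of origin licensing, DNA synthesis, mitotic entry, spindle and kinetochore, condensin, mitotic exit and E2F with DREAM complex genes held 140 genes, all tested. Control replicate 2 and tumor replicate 1 were the lowest of their groups for 108 of the 140, or 77.1%, against 22% of all tested genes. They were so for 28 of 29 spindle and kinetochore genes, 23 of 26 DNA synthesis genes, 14 of 17 mitotic entry genes, 15 of 22 licensing genes, 6 of 8 condensin genes, 12 of 18 mitotic exit genes and 10 of 20 E2F and DREAM genes.

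Of the 140 genes, edgeR called 2 higher, 0 lower and left 138 without a call, a share of 1.43% against 7.71% of all tested genes; DESeq2 called 13, where it called 20.6% of all genes, and 21 passed 0.05 by unadjusted p, where 31% of all genes did. Wee1, the kinase that holds Cdk1 inactive, rose, from 19.3, 17.2 and 20.0 CPM in control to 30.2, 27.9 and 29.6 CPM in tumor libraries. The means were 18.9 ± 1.46 and 29.2 ± 1.204 CPM (SD, n = 3 each). Its log2 fold change was 0.63 ± 0.11 (SE) at an adjusted p of 0.0374 in edgeR. Cdc27, a subunit of the anaphase promoting complex, rose from 57.7 ± 4.94 to 85.4 ± 5.01 CPM, a log2 fold change of 0.57 ± 0.10 (SE) at an adjusted p of 0.0374 in edgeR. Neither gene followed the order of the markers, since tumor replicate 1 held the highest Wee1 value and control replicate 2 the highest control value of Cdc27. Both calls ended without control replicate 1 or 3 or tumor replicate 2 or 3, with adjusted p between 0.0902 and 0.144, and that of Cdc27 also after the length correction, with a log2 fold change of 0.39 and an adjusted p of 0.0609.

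The list medians lay between -0.08 for mitotic exit and 0.25 for condensin, on the log2 fold change scale. Licensing had a median of 0.19, spindle and kinetochore 0.18, E2F and DREAM 0.22, mitotic entry 0.09 and DNA synthesis 0.05. Condensin genes Ncapg and Smc4, which compact mitotic chromosomes, had log2 fold changes of 0.72 and 0.41 at adjusted p of 0.0586 and 0.082 in edgeR. Neither overlapped between the groups. The same held for 3 of the 8 condensin genes, 30 of the 140 cell cycle genes and 38.1% of all tested genes. DESeq2 called Ncapg and Smc4, at adjusted p of 0.0090 and 0.0255. Without tumor replicate 1 edgeR called Ncapg, at an adjusted p of 0.0439. Aspm, a spindle pole gene, and Knl1, a kinetochore scaffold gene, had 0.58 and 0.51, and Kif4, a chromosome-bound kinesin gene, had 0.54. Among licensing genes, the origin subunit gene Orc2 had 0.45 and Ticrr, which acts in origin firing, had 0.79. Pola1, the catalytic subunit gene of polymerase alpha, Slbp, the histone stem-loop binding protein gene, and Uhrf1, which maintains DNA methylation in S phase, had 0.43, 0.35 and 0.48. Mastl, the Greatwall kinase gene, and Mybl2, a transcription factor gene of the MuvB complex, had 0.55 and 0.43. Lin37 of the DREAM complex and the anaphase promoting complex genes Anapc2 and Anapc11 lay in the other direction, with -0.66, -0.38 and -0.46, and Lin54 and Tfdp2, which encode DNA-binding partners in these complexes, had 0.44 and 0.36. None of these genes passed edgeR's threshold with all 6 libraries. DESeq2 also called Orc2, Ticrr, Mastl, Aspm, Tfdp2, Anapc2, Anapc11 and Lin37, at adjusted p of 0.0164, 0.0411, 0.0253, 0.0244, 0.0438, 0.0060, 0.0176 and 0.0083. Without tumor replicate 1 edgeR called Orc2, Mastl and Tfdp2 as well, at adjusted p of 0.0454, 0.0454 and 0.0450. Without control replicate 2 it called Orc2, Anapc2, Anapc11 and Lin37, at adjusted p of 0.0291, 0.0380, 0.0299 and 0.0317. Over all genes edgeR called 2605 without tumor replicate 1 and 2274 without control replicate 2, against 1217 with all 6 libraries. The genes of this paragraph were named for the smallest p in their lists in the same data. Their calls in these settings are thus no separate support for a cell cycle difference. The length correction lowered Knl1 to 0.15, Aspm to 0.35, Ticrr to 0.51, Pola1 to 0.25 and Tfdp2 to 0.09, and moved Lin37 to -0.37.

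**Figure D4:**
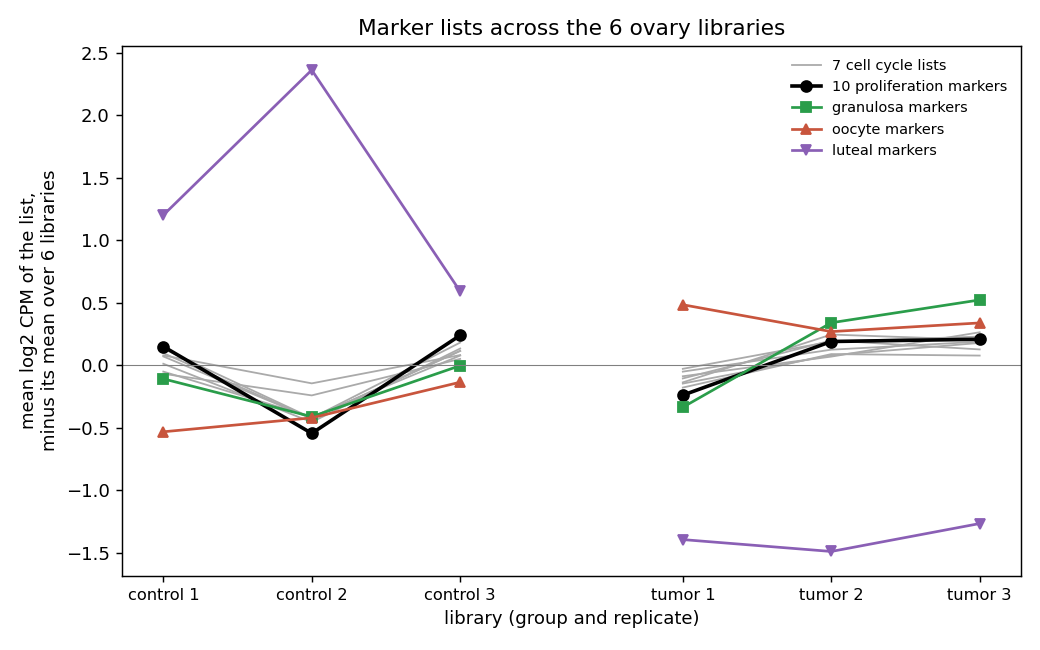
For each list the mean log2 CPM of its genes in each of the 6 libraries is drawn after its mean over the libraries was subtracted; lines only join points of one list within a group, whose replicates have no order. The proliferation markers in black and the 7 cell cycle lists in grey dip in control replicate 2 and tumor replicate 1, as do the granulosa markers in green, while oocyte markers in red and luteal markers in purple separate the groups.

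Markers of ovarian cell types differed in whether they shared the order of these genes. Control replicate 2 and tumor replicate 1 were again lowest for 7 of 10 granulosa and 6 of 7 theca and steroidogenic markers. The same pair was lowest for 2 of 5 endothelial and 1 of 5 smooth muscle markers, against 22% of all tested genes. It was lowest for 0 of the tested oocyte, luteal, adipocyte, oviduct, macrophage, lymphocyte, erythroid and surface epithelium markers. The defining genes of granulosa cells and oocytes were detected in every library. The summed level of 10 granulosa markers was 4739, 3701 and 4653 CPM in control replicates 1, 2 and 3 and 3132, 5377 and 5450 CPM in tumor replicates 1, 2 and 3, lowest in the same 2 libraries as the proliferation markers. Luteal markers, 6 genes, summed to 883.8, 2597 and 705.6 CPM in control, highest in replicate 2, and to 139.7, 461.2 and 563.7 CPM in tumor libraries. Of the 12 oocyte markers edgeR called 8 higher, where 3.8% of all genes were, 0 lower and left 4 without a call, and their summed level lay between 361.5 and 477.5 CPM in control and between 574.5 and 722.4 CPM in tumor, with the highest value in tumor replicate 1. Adipocyte markers summed to between 438.4 and 619.2 CPM in control and between 637.5 and 6878 CPM in tumor, highest in tumor replicate 1; edgeR called 0 of 7, DESeq2 called 6, where it called 20.6% of all genes, and 6 had an unadjusted p under 0.05, where 31% of all genes did. Oviduct markers lay between 454.6 and 2105 CPM in control and between 39.0 and 1909 CPM in tumor, where replicate 1 was highest; edgeR and DESeq2 called 0 of 7, and 0 had an unadjusted p under 0.05. Theca and steroidogenic markers, with 2 of 7 higher and none lower, summed to between 14579 and 15203 CPM in control and to between 2741 and 10378 CPM in tumor, lowest in replicate 1. The sum is weighted to the most abundant genes, and the list had no common direction. Log2 fold changes ran from -1.93 to 1.18, with 4 positive and 3 negative. The mean log2 CPM of the list was 7.97, 8.73 and 8.01 in control and 6.96, 8.68 and 8.99 in tumor replicates 1, 2 and 3. Smooth muscle markers fell in 3 of 5 and luteal markers in 3 of 6, where 3.91% of all genes fell. Of the granulosa markers 1 of 10 rose and 0 fell, where 3.8% of all genes rose and 7.71% changed in either direction. Of the tested macrophage, endothelial, surface epithelium, lymphocyte and erythroid markers none was called by edgeR, while 2, 2, 0, 0 and 0 passed 0.05 by unadjusted p and DESeq2 called 1, 0, 0, 0 and 0. Among the lymphocyte markers, Cd3g had a count of 0 in some library. The part of these cell types in the levels of the proliferation markers was not tested.

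Levels between markers can be compared per length, as TPM. Birc5 was the most abundant, at 56.8 ± 13.9 TPM in control and 73.3 ± 7.08 TPM in tumor (SD, n = 3 each). Mcm2, Top2a, Ccna2, Plk1 and Mcm5 followed in control, with means between 32.3 and 42.4 TPM, and Ccnb1 and Aurkb stood at 26.8 ± 5.68 and 25.0 ± 8.14 TPM. Mki67, at 18.6 ± 4.06 TPM, and Cdk1, at 17.7 ± 4.04 TPM, were the lowest in control. Neighbours in this order differed by less than the larger of their SDs, apart from Birc5 and Mcm2. In tumor ovaries Mki67 stood at 29.1 ± 3.12 TPM, against 17.2 ± 3.04 TPM for Cdk1. The TPM scale is set within each library. On it the Mki67 libraries did not overlap between the groups, with 14.6 to 22.7 TPM in control and 25.7 to 31.8 TPM in tumor. The share of all tested genes without overlap was 38.1% on CPM and was not counted on TPM. With limma on log2 FPKM plus 1, Mki67 had a log2 fold change of 0.51 and an adjusted p of 0.103. Dividing by length, as FPKM and TPM do, leaves the trend of fold changes with gene length in place. After the length correction Mki67 had 0.16 at an adjusted p of 0.711 in edgeR.

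The deposited transcript estimates show which mRNA carried each marker. Ccnb1, Cdk1, Plk1, Ccna2 and Mcm2 were each listed with 1 transcript. The leading transcript took between 88.8% and 98.9% of the TPM of Mki67, between 88.2% and 91.7% of Birc5 and between 79.9% and 87.1% of Aurkb. For Top2a it took 69.7%, 49.7% and 70.3% in control and 79.0%, 71.1% and 75.3% in tumor libraries, lowest in control replicate 2. For Mcm5 the split between 2 transcripts moved from 100% for the leading one in control replicate 1 to 55.2% in control replicate 2. Reads of 50 bases often cannot tell transcripts of one gene apart, so such shares are estimates with unknown error.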

How the data were processed

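RNA of 3 control and 3 tumor ovary libraries was sequenced as single reads of 50 bases, per the labels' protocols. HISAT2 2.0.4, Bowtie2 2.2.5, RSEM 1.2.12 and GRCm38.p6 were used, per the submitters' processing notes, without their roles. Per gene and per transcript, the deposited tables give estimated counts, FPKM and TPM; 39.2% of the gene counts above 0 held a fraction. A DESeq2 comparison by the authors was deposited too, with a log2 fold change, p-value and q-value per gene, per the file headers. A further 24 columns of per-sample values were not used.

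Estimated counts were rounded and filtered with filterByExpr, which left 15787 genes, scaled by TMM and tested with edgeR 4.0.16 (R 4.3.3, robust quasi-likelihood, group as the only term). The threshold was a Benjamini-Hochberg adjusted p of 0.05 over all tested genes; 95% intervals use the SE, the log2 fold change over the root of F, with edgeR's degrees of freedom. Alternatives were RLE scaling, no filter, DESeq2 1.42.0, limma 3.58.1 on log2 FPKM plus 1 or plus 0.1, a replicate block, a lowess correction for effective length (from counts and FPKM), and each library left out. Levels relative to other markers used log2 of CPM plus 0.5. The edgeR fit was tested on simulated data with 15631 genes. No pair of libraries agreed within sampling noise (chi-square per degree of freedom at least 13.0).

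The 10 markers, 7 cell cycle lists and 12 cell type lists were chosen with earlier results of these data known. The text names all markers, the other MCM helicase subunits, Incenp, Cdca8, Ccnb2 and up to 3 genes with the smallest p from each cell cycle list; Orc5 and Ncapg2, which also met this rule, had adjusted p of 0.211 and 0.200 in edgeR. Gene positions are those of the deposited annotation, but its strand differed from GENCODE M21 for 2537 of 18705 matched genes, Mki67 and Ccna2 among them, and GENCODE and RefSeq strands were used. Whether counting used strand is not given in the sources used here. DESeq2 gave 14845 genes an adjusted p.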

Additional observations from a re-analysis of the deposited data

How the results depend on the processing

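No alternative tried called any of the 10 markers, but some called almost no gene at all. Over all genes edgeR called 0 with the replicate block, without control replicate 1 and without tumor replicate 3. It called 3 without tumor replicate 2 and 5 without control replicate 3. The lack of a marker call in these settings says little about the markers. Of 130 marker values under the 13 alternatives, 111 kept their sign; Mki67, Ccnb1, Cdk1 and Birc5 kept it in each. The 19 that turned stayed at or under 0.22 in size on the log2 scale. After the length correction Top2a had -0.081, Mcm2 -0.023, Mcm5 -0.036, Mcm7 0.0092 and Ccnb2 0.055. Without the filter on low counts Aurkb had -0.00049 and Mcm5 -0.0016. With limma on log2 FPKM, Mcm7 had 0.0073 and 0.0078. With libraries left out in turn the log2 fold changes ranged from -0.094 to 0.27 for Top2a, from 0.11 to 0.42 for Ccnb1, from -0.37 to -0.06 for Cdk1, from 0.10 to 0.44 for Birc5, from -0.22 to 0.22 for Aurkb, from -0.40 to 0.014 for Plk1, from -0.043 to 0.29 for Ccna2, from -0.15 to 0.19 for Mcm2, from -0.21 to 0.20 for Mcm5, from -0.16 to 0.18 for Mcm3, from -0.20 to 0.10 for Mcm7, from -0.10 to 0.21 for Incenp, from -0.14 to 0.19 for Cdca8 and from -0.31 to 0.013 for Ccnb2. The list medians moved by less than the SD within groups, but signs turned: over the alternatives the median ranged from -0.09 to 0.25 for the markers, from -0.08 to 0.21 for DNA synthesis, from -0.03 to 0.24 for mitotic entry and from -0.12 to 0.03 for mitotic exit. After the length correction it fell from 0.22 to 0.10 for E2F and DREAM and from 0.25 to 0.12 for condensin.

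The count of 1217 changed genes over all tested genes was 3057 with DESeq2, 357 after the length correction and 0 with the replicate block, where 4233 had an unadjusted p under 0.05. With libraries left out it lay between 0 and 2605: 0 without control replicate 1 or tumor replicate 3, where 3137 and 3761 had an unadjusted p under 0.05 in edgeR, 3 and 5 without tumor replicate 2 and control replicate 3, and 2274 and 2605 without control replicate 2 and tumor replicate 1. The cause was not tested. The replicate block turned Mcm2 to -0.0034 and ended the calls of Wee1 and Cdc27, each with an adjusted p of 0.0939. Deviations of same-numbered samples from their group means correlated at 0.24, -0.21 and 0.53 for numbers 1, 2 and 3. With 3 libraries per group the deviations depend on one another, so these values cannot decide whether same-numbered samples were paired. The labels give them only a shared number.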

Other observations

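The mean log2 CPM of the markers minus that of the 10 granulosa markers was -1.52, -1.91 and -1.53 in control replicates 1, 2 and 3 and -1.68, -1.92 and -2.09 in tumor replicates 1, 2 and 3. The groups overlapped on this measure. Control replicate 2 was still the lowest control library, while tumor replicate 1, the lowest tumor library in the markers themselves, was here the highest of its group.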
